A study of Caenorhabditis elegans with 12 samples.

Results

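The lectin genes of Caenorhabditis elegans were examined in whole mid L4 larvae: every entry named clec or lec with a number in both deposited count tables. There were 277 such genes, 265 clec and 12 lec, among 46711 entries in one table and 46722 in the other. Cultures were kept at 20 °C, larvae were collected 45 h after feeding, and RNA depleted of ribosomal RNA was sequenced in 12 libraries, 3 per group. Values of 3 libraries below follow the labels' letters A, B and C. The U13A control, strain DG3913, carries lin-41(tn1541), an allele that adds a GFP tag to lin-41. The U13A mutant, strain VT3878, has the genotype lin-41(tn1541ma480);let-7(ma432), so it differs from its control in lin-41 as well as in let-7, and its labels speak of excluding effects downstream of lin-41. The U18A control, strain VT1367, carries maIs105, a col-19::gfp reporter array, and the U18A mutant, strain VT3797, carries maIs105 and let-7(ma435). U13A and U18A are the names that the labels give the mutants, and let-7 is a microRNA that times larval development. Nothing in the labels says whether the lettered libraries came from separate cultures, so p-values measure the spread between these libraries, which may be technical.

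C-type lectin-like proteins carry a compact, disulphide-bonded domain that in vertebrate members binds sugars through calcium. Nematodes have a greatly expanded set, many of them secreted by the intestine, and many clec transcripts are induced when worms meet pathogenic bacteria. Galectins, the lec genes, are a separate family that binds β-galactosides without calcium. The worms here were fed Escherichia coli HB101, and no pathogen was part of the design.

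The U13A libraries held 16659340 to 21414080 counts and the U18A libraries 6107652 to 9607239. Very abundant entries, 3 in number, took 65.6% to 76.8% of the U13A counts, against 0.527% to 1.01% in the U18A table, so levels were compared within a table only. Lectin genes took 0.436% to 0.479% of the remaining counts in the U13A libraries other than control C, 0.271% in U13A control C, and 0.46% to 0.513% in the U18A libraries. U13A control C stood apart with a TMM scaling factor of 0.577, where the other U13A libraries had 1.02 to 1.22, and U18A mutant C had the highest factor of its table, 1.12. Counts in a whole-animal library do not tell fewer cells of a type from less RNA per cell. As background for the tissue labels, each of the 12 intestinal marker genes examined, ges-1 and elt-2 among them, had enough counts for testing in both tables.

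Most lectin genes were near the limit of detection. Of the 277 genes, 34 had 0 counts in all 12 libraries, which allows up to 3 counts per library, or 0.491 CPM (a count scaled to its library's total) in the shallowest U18A library, for counting error only. A further 155 were counted but had too few counts to be tested in either contrast. Enough counts were present for 80 genes in the U13A contrast and 87 in the U18A contrast, 79 of them in both. The annotation calls 25 of the matched members pseudogenes, and 4 of these, clec-152, clec-154, clec-159 and clec-236, were among the 88 genes tested in either contrast. The 4 most counted genes, clec-63, lec-1, clec-150 and lec-6, held 54.1% to 58.2% of all lectin counts in the U13A libraries and 46.8% to 54.9% in the U18A libraries.

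Levels of different genes were compared as TMM-scaled CPM per kilobase of merged exons. The galectin gene lec-1, whose product is a tandem-repeat galectin reported in the cuticle and pharynx, had 217, 197 and 160 CPM per kilobase in the U13A controls against 193, 230 and 238 in the mutants. In the U18A table lec-1 had 649, 627 and 626 in the controls against 609, 595 and 472 in the mutants. The groups overlapped in the U13A table, while in the U18A table every lec-1 mutant value lay below every control value. Its change did not pass the threshold in either contrast, with log2 fold changes, given here and below with their SE, of 0.20 ± 0.17 (adjusted p 0.682) for U13A and -0.18 ± 0.10 (adjusted p 0.322) for U18A.

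lec-6 encodes a prototype galectin that recognises galactose-fucose units on worm N-glycans. It had 192, 182 and 124 CPM per kilobase in the U13A controls against 229, 224 and 243 in the mutants. The U13A groups did not overlap, and control C was the lowest of the 6. In the U18A controls lec-6 had 793, 883 and 859 CPM per kilobase, against 873, 918 and 673 in the mutants, with overlapping groups. The log2 fold change was 0.48 ± 0.17 (adjusted p 0.227) for U13A and -0.04 ± 0.11 (adjusted p 0.863) for U18A.

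clec-63 was the most abundant clec gene in both tables and lies on chromosome II at 12895638 to 12897446 (WBcel235). It had 157, 166 and 136 CPM per kilobase in the U13A controls against 165, 168 and 178 in the mutants. In the U18A table it had 601, 661 and 641 in the controls against 693, 629 and 577 in the mutants. The mutant values lay within or near the control range in both tables. The 95% interval of the log2 change ran from -0.17 to 0.48 for U13A and from -0.20 to 0.20 for U18A.

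clec-150, on chromosome III, was the next clec gene by level. It had 111 ± 13.9 CPM per kilobase in U13A controls and 121 ± 7.28 in the mutants (SD, n = 3 each). The U18A controls had 401, 423 and 408, and the mutants 449, 455 and 336. The groups overlapped in both tables, and the interval of the U18A change ran from -0.21 to 0.23 on the log2 scale.

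**Figure D1:**
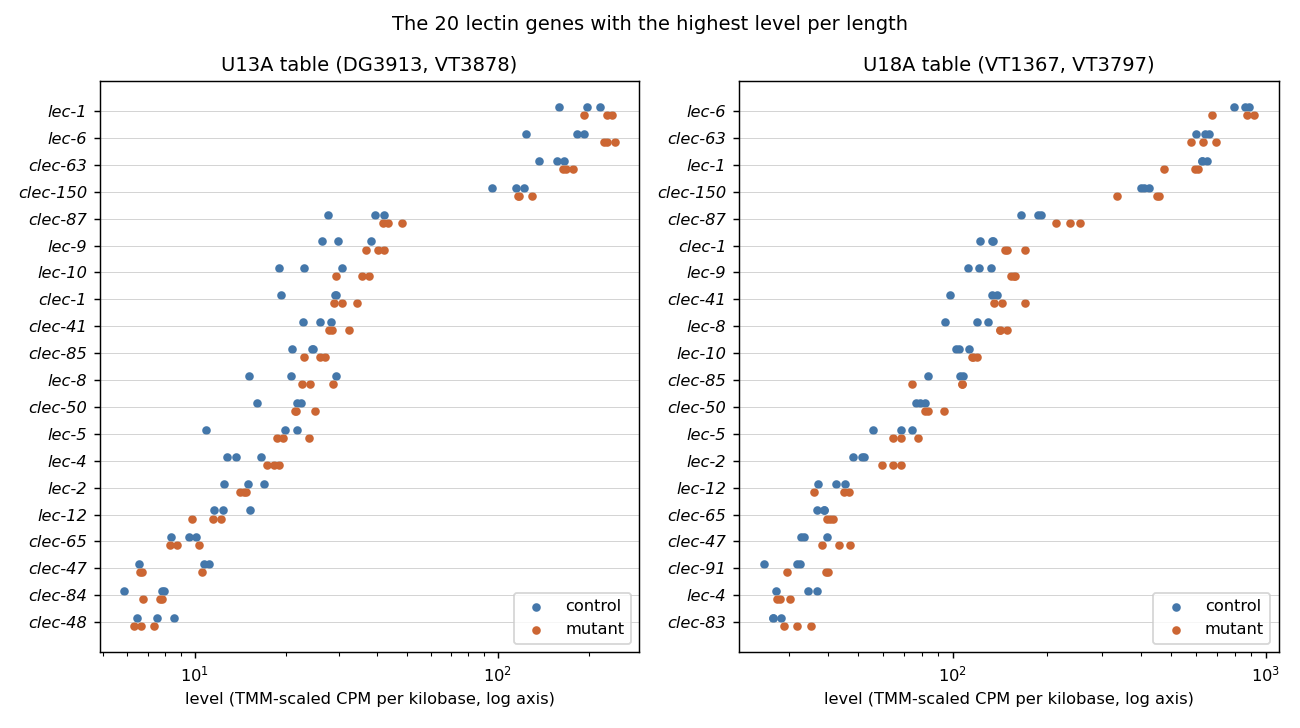
Level of the 20 lectin genes with the highest mean over the 6 libraries of each table, in TMM-scaled CPM per kilobase on a log axis; each point is 1 library, blue for controls and orange for mutants. In both tables lec-1, lec-6, clec-63 and clec-150 stand apart from the rest, at 336 CPM per kilobase or more in every U18A library.

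In U18A controls the 10 highest genes, in order of mean level per kilobase, were lec-6, clec-63, lec-1, clec-150, clec-87, clec-1, clec-41, lec-9, lec-8 and lec-10. Neighbours in this order were further apart than the sum of their SDs in 4 places: lec-6 above clec-63, lec-1 above clec-150, clec-150 above clec-87, and clec-87 above clec-1. The levels of clec-63 and lec-1, both with a mean of 634, were not separated in this way, nor were any neighbours from clec-1 (130 ± 7.14) down to lec-10 (107 ± 5.59; SD, n = 3 each). In U13A controls the order was lec-1, lec-6, clec-63, clec-150, clec-87, lec-9, clec-1, clec-41, lec-10 and clec-85, with 2 separated neighbours: clec-63 above clec-150, and clec-150 above clec-87. Over the 242 genes with a count and a length, control levels per kilobase in both tables had a Spearman rho of 0.917, a description across genes that share their lengths.

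Some lectin genes of the immune response were abundant and others were nearly silent. From reporter or infection studies 9 genes were listed as intestinal lectins: clec-39, clec-49, clec-60, clec-61, clec-63, clec-65, clec-67, clec-85 and lec-8. Whole-animal counts do not show the tissue of a gene, so this listing was not tested here. Of the 9 listed genes, 6 had enough counts in each contrast. In U18A controls clec-85 had 99.0 ± 13.4 CPM per kilobase and clec-65 had 38.2 ± 1.17 (SD, n = 3). clec-85 shares 397 exonic bases with a gene on the same strand, Y54G2A.40, so its counts are uncertain. clec-60 and clec-61, which are induced by Staphylococcus aureus and Microbacterium nematophilum, had at most 5 counts in any library. clec-39, needed with clec-49 for defence against Serratia marcescens, had at most 1 count in any library, whereas clec-49 had 4.00 ± 0.466 CPM per kilobase in U18A controls. clec-41, which is needed for defence against Bacillus thuringiensis, had 123 ± 22.1 CPM per kilobase in U18A controls.

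Genes of this family sit in arrays, and levels varied widely within them. With neighbours counted when fewer than 10000 bases separated them, 181 genes fell into 54 arrays of at least 2 members and 95 stood alone. clec-81 had no coordinates and was left out of this count. Of the array members 52 had enough counts to be tested in either contrast (28.7%), and of the genes standing alone 35 did (36.8%). In the array of 5 genes on chromosome II from 12893062 to 12906644, U18A controls had 634 CPM per kilobase for clec-63, 20.0 for clec-62, 22.6 for clec-66, 38.2 for clec-65 and 0.313 for clec-64. The array of 5 genes on chromosome IV from 2823746 to 2855456 held clec-85 beside clec-82, which had 0.168 CPM per kilobase. The array of 13 genes that starts with clec-67 on chromosome IV, from 3922165 to 3975721, had a median of 0.326 CPM per kilobase and a highest level of 12.9, that of clec-67. None of the 15 genes of the largest array, on chromosome V from 16839121 to 16869840, reached 1 CPM per kilobase as a mean of the U18A controls. Its highest member was clec-28, at 0.991.

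**Figure D2:**
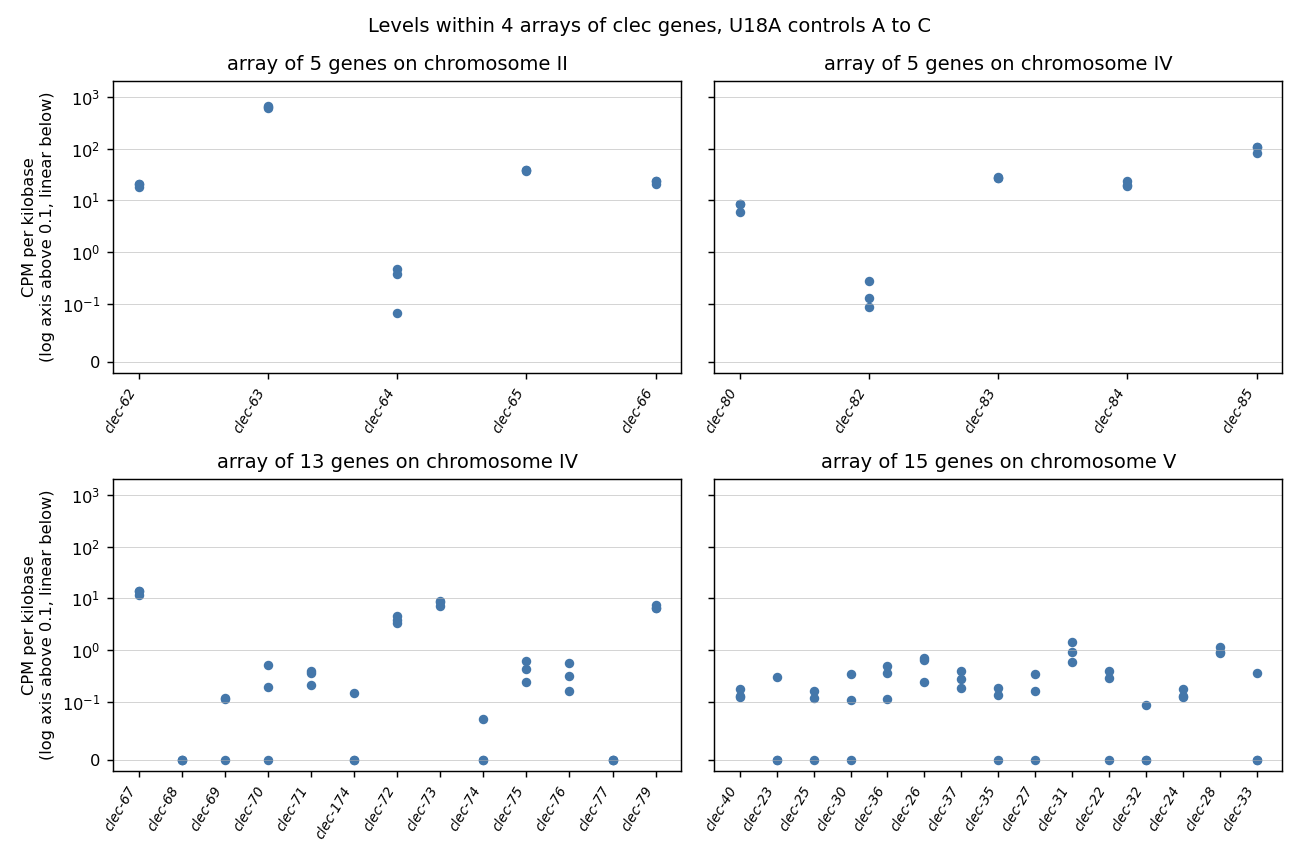
Level per kilobase in the U18A controls of the members of 4 arrays, in chromosomal order; each point is 1 library, and the axis is logarithmic above 0.1 and linear below. clec-63 stood at 634 CPM per kilobase while clec-64 of the same array stood at 0.313, and no gene of the array of 15 reached a mean of 1.

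The U13A contrast asked which lectin genes change in strain VT3878. Of 80 lectin genes tested, 1 passed the threshold of an adjusted p under 0.05 (1.25%), where 1.55% of all 12044 genes did. That gene, clec-230, was lower, and no lectin gene passed as higher, against 0.822% of all genes lower and 0.731% higher. At an unadjusted p under 0.05 there were 8 higher and 1 lower, 11.25% of the lectin genes tested against 12.6% of all genes. With DESeq2 there were 0 higher and 1 lower. The median log2 fold change of the tested lectin genes was 0.05, against -0.01 over all tested genes, and 71 of the 80 estimates lay within 0.5 of 0. The 8 genes with higher estimates that missed the adjusted threshold were clec-146, clec-149, clec-153, clec-180, lec-4, lec-6, lec-9 and lec-10. Without U13A control C the count was unchanged, at 0 higher and 1 lower.

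The U18A contrast asked the same of strain VT3797. Of 87 lectin genes tested, 13 passed (14.9%), where 8.16% of all 12689 genes did. Of these, 6 were higher and 7 were lower. The share higher was 6.9% against 2.29% of all genes, and the share lower was 8.05% against 5.88%. At an unadjusted p under 0.05 there were 16 higher and 10 lower, 29.9% of the lectin genes tested against 21.5% of all genes. With DESeq2 there were 5 higher and 5 lower. The median log2 fold change of the tested lectin genes was 0.09, against 0.01 over all tested genes, and 75 of the 87 estimates lay within 0.5 of 0. Without U18A mutant C 4 lectin genes passed as higher and 4 as lower, and without U18A control A 1 passed as higher and 4 as lower. Without U18A control B 3 passed as higher and 4 as lower. Shares of all genes called are given for the main edgeR fit only. The counts from DESeq2 and from fits without 1 library thus do not show whether lectin genes lost calls more often than other genes.

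**Figure D3:**
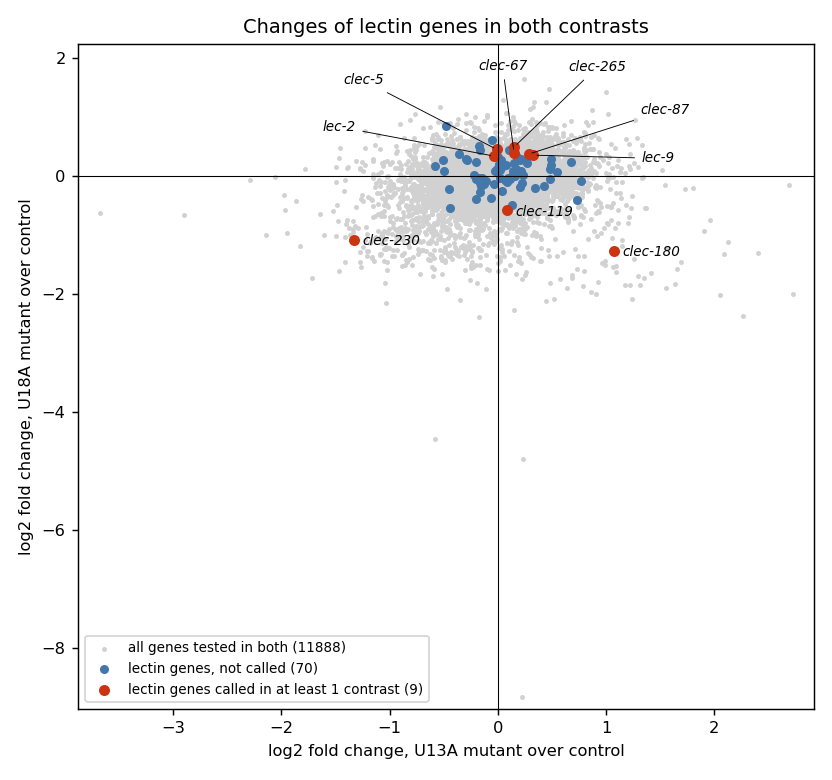
log2 fold change of each gene in the U13A contrast (horizontal) and the U18A contrast (vertical); grey points are the 11888 genes tested in both, blue points lectin genes that passed in neither contrast, red points lectin genes that passed in at least 1. Genes tested in 1 contrast only are not drawn, so clec-78, clec-92, clec-242 and clec-247, which passed for U18A, are missing. clec-230 lies low in both contrasts, at -1.33 and -1.07, and clec-180 is the lectin gene farthest to the lower right, at 1.07 and -1.26.

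clec-230 was the single lectin gene lower past the threshold in both mutants, 1 of 79 tested in both (1.27%), where 0.446% of all 11888 such genes met the same condition. It lies on chromosome V at 15347847 to 15349144, on the minus strand. Counts were 78, 52 and 28 in the U13A controls against 30, 12 and 23 in the mutants. In the U18A table they were 93, 69 and 94 in the controls against 33, 37 and 51 in the mutants. Scaled to depth and length, clec-230 had 5.95, 3.22 and 4.27 CPM per kilobase in U13A controls against 2.14, 1.11 and 1.96 in the mutants. In the U18A table it had 22.4, 17.3 and 16.0 in the controls against 7.70, 10.2 and 8.58 in the mutants. Every mutant value was below every control value in both tables.

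The log2 fold change of clec-230 was -1.33 ± 0.30 (edgeR adjusted p 0.0435) for U13A and -1.07 ± 0.19 (adjusted p 0.00112) for U18A. The U18A call held in each of the 6 fits that left out 1 library. The U13A call was lost in 4 of 6 such fits: the adjusted p was 0.247 without control A, 0.156 without mutant A, 0.221 without mutant B and 0.0948 without mutant C. Without U13A control C it was 0.014. The changes did not differ between contrasts past the threshold, with a difference of -0.23 ± 0.36 (adjusted p 0.866).

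clec-229, a neighbour of clec-230 in an array of 4, was chosen after its values were seen. It had 22, 24 and 17 counts in the U18A controls against 12, 9 and 13 in the mutants, with a log2 fold change of -0.89 ± 0.34 (adjusted p 0.128). In the U13A table it had 5, 6 and 8 counts in the controls against 5, 2 and 2 in the mutants, too few to test.

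The other 6 lectin genes lower in the U18A mutant were clec-92, clec-247, clec-242, clec-180, clec-78 and clec-119, and no role is given for them here. clec-92 had 10, 14 and 20 counts in the U18A controls against 4, 5 and 4 in the mutants. All 3 mutant counts lay below the controls. The log2 fold change was -1.71 ± 0.42 (adjusted p 0.0166), and DESeq2 gave an adjusted p of 0.0763. The call was also lost in 3 of the 6 fits that left out 1 library (highest adjusted p 0.104, without mutant C). In the U13A table clec-92 had 5, 4 and 1 counts in the controls against 1, 1 and 0 in the mutants, too few to test.

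clec-242, on chromosome V, had 23, 20 and 21 counts in U18A controls against 3, 7 and 13 in the mutants. Its log2 fold change was -1.47 ± 0.37 (adjusted p 0.0191), lost in 3 of 6 fits without 1 library (highest adjusted p 0.107, without control A). U13A controls had 6, 5 and 5 counts and the mutants 0, 3 and 3, too few to test. clec-92 and clec-242, like clec-230, had every mutant CPM value below every control value in both tables, but at counts of 6 or fewer in the U13A libraries. For clec-92 the U13A order rests on scaling: control C, with its TMM factor of 0.577, had the same raw count as mutants A and B. Both were set beside clec-230 after their values were seen.

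clec-247 was the least even of these genes, with 71, 19 and 54 counts in the U18A controls against 15, 14 and 17 in the mutants. Its log2 fold change was -1.62 ± 0.43 (adjusted p 0.0463). The call was lost in 5 of 6 fits without 1 library, at adjusted p values up to 0.266. Without the lowest control, B, the adjusted p was 0.000596. In the U13A table clec-247 had 6, 5 and 1 counts in the controls against 2, 4 and 10 in the mutants, overlapping and too few to test, and the difference of the contrasts was 2.03 ± 0.94 (adjusted p 0.394).

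clec-78 is a long gene on chromosome IV, with 10850 exonic bases, just beyond the clec-67 array. It had 31, 28 and 42 counts in U18A controls against 14, 12 and 16 in the mutants, 0.412 ± 0.0134 against 0.176 ± 0.0195 CPM per kilobase (SD, n = 3 each). The log2 fold change was -1.24 ± 0.25 (adjusted p 0.00399), and it passed in all 6 fits without 1 library. Its U13A counts were 16, 11 and 7 in the controls against 9, 5 and 16 in the mutants, overlapping and too few to test. clec-119, chosen after its values were seen because it passed, fell by 0.58 (log2 scale, SE 0.17, with an adjusted p of 0.0441). Its call was lost in DESeq2 (adjusted p 0.146), with all 12 libraries in 1 fit (0.0707) and in 5 of 6 fits without 1 library, up to an adjusted p of 0.208 without control A. The clec-119 estimate for U13A was 0.08 ± 0.21 (adjusted p 0.907).

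clec-180 was the lectin gene whose change differed between the contrasts. It lies on chromosome IV at 7568893 to 7573766. Counts were 10, 6 and 6 in the U13A controls against 15, 15 and 18 in the mutants, and 43, 36 and 39 in U18A controls against 13, 16 and 20 in the mutants. Per kilobase these were 0.148 ± 0.0606 and 0.288 ± 0.0512 CPM in the U13A groups, and 1.88 ± 0.409 and 0.779 ± 0.154 in the U18A groups (SD, n = 3 each). Mutant values were all above the controls in the U13A table and all below them in the U18A table.

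Within the U18A contrast clec-180 fell by 1.26 (log2 scale, SE 0.26, with an adjusted p of 0.00464), whereas the U13A change of 1.07 ± 0.39 (adjusted p 0.246) did not pass. The difference of the contrasts was 2.36 ± 0.46 (edgeR adjusted p 0.00556), and it passed in each of 12 fits that left out 1 library. Of 105 lectin genes tested for the difference, 1 passed (0.952%), where 1.96% of all 14155 genes did. At an unadjusted p under 0.05 there were 14 lectin genes, 13.3% of those tested, against 12.2% of all genes. Without U13A control C 2 passed, the other being lec-2 with an adjusted p of 0.0435. The strains of each contrast fill 1 table, so contrast and table cannot be told apart.

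Among 6 hypodermal markers, 3 were lower in the U18A mutant along with the lectin genes above, and 3 did not pass. Of all genes tested for U18A, 5.88% passed as lower. The summed level of the 6 was 400 to 545 CPM in U18A controls and 243 to 261 in the mutants, and the 3 that passed were the cuticle collagen genes dpy-7, rol-6 and dpy-13. The log2 fold changes of the other markers, which encode transcription factors, were 0.15 for elt-3, 0.16 for lin-26 and -0.04 for nhr-23 (adjusted p 0.523, 0.598 and 0.846). In the U13A table the sum was 73.3 to 89.5 CPM in controls and 53.2 to 69.6 in mutants, with dpy-13 the 1 marker that passed, lower. Of all genes tested for U13A, 0.822% passed as lower. Whether hypodermal RNA took part in the lectin changes was not tested. Of the 12 intestinal markers 0 passed in either contrast with edgeR or DESeq2, and at an unadjusted p under 0.05 there were 2 higher and 1 lower for U13A and 3 higher for U18A. Their sums were 4657 to 4699 CPM in U18A controls and 4585 to 5348 in the mutants. Of the markers of pharynx, body wall muscle, neurons, coelomocytes and sperm, 0 passed in either contrast with edgeR, while DESeq2 called 1 pharynx marker lower for U13A. At an unadjusted p under 0.05, 1 pharynx marker was lower in each contrast, 1 sperm marker was lower for U13A and 3 for U18A, and 1 neuron marker was higher for U18A. Over all genes 12.6% for U13A and 21.5% for U18A had an unadjusted p under 0.05. In the U13A table the intestinal sums were 1004 to 1367 CPM in controls and 1298 to 1345 in mutants.

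**Figure D4:**
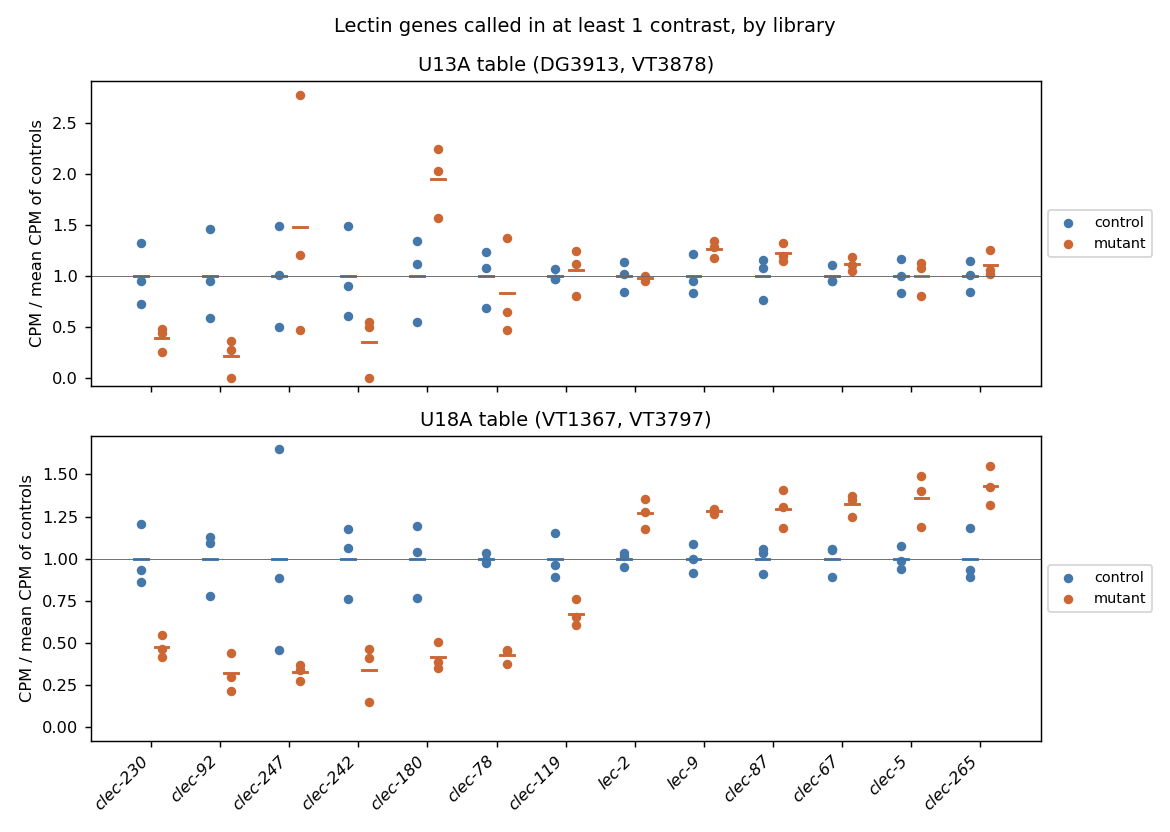
CPM of each lectin gene that passed in at least 1 contrast, divided by the mean of the controls of the same table; points are libraries and short lines group means, with blue for controls and orange for mutants. In the U18A table the 7 genes at the left have all mutant points below all control points and the 6 at the right have them above. In the U13A table clec-230, clec-92 and clec-242 show the same order as in the U18A table, and clec-180 the opposite one. The U13A order of clec-92 rests on scaling, since control C had the same raw count as mutants A and B.

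The 6 lectin genes higher in the U18A mutant were clec-87, clec-265, clec-5, clec-67, lec-2 and lec-9. Their log2 fold changes ran from 0.34 to 0.50, whereas 6 of the 7 lower genes fell by more than 1. Each of those 6 had a larger SE than the higher genes, so a change as small as 0.34 to 0.50 would hardly have passed among them. The sizes of rises and falls among called genes therefore cannot be compared directly. clec-87, which encodes a chondroitin proteoglycan core protein, had 165, 187 and 192 CPM per kilobase in the U18A controls against 237, 214 and 255 in the mutants. Its groups did not overlap, and the log2 fold change was 0.38 ± 0.09 (adjusted p 0.0104). The adjusted p was 0.0937 without control A. With all 12 libraries in 1 fit, clec-265 and clec-67 passed and clec-87, clec-5, lec-2 and lec-9 did not, at adjusted p values of 0.117, 0.0756, 0.105 and 0.0915 in that order. clec-87 shares 138 exonic bases with iars-2 on the opposite strand, and the labels do not say whether counting used strand, so its counts are uncertain. clec-88, another chondroitin proteoglycan gene and chosen after its values were seen, had a U18A log2 fold change of 0.61 (adjusted p 0.0938), which did not pass. Of 8 germline and oocyte markers 1, puf-5, was higher in the U18A mutant with edgeR and 0 with DESeq2. Of all genes 2.29% passed as higher with edgeR. At an unadjusted p under 0.05, 3 of the 8 were higher for U18A and 1 for U13A, and 0 were lower. Over all genes 21.5% and 12.6% fell under it, in that order. The sum of the 8 markers was 2070 to 2193 CPM in U18A controls and 2201 to 2426 in the mutants. Whether germline RNA took part in the clec-87 change was not tested.

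clec-67, a gene induced by several pathogens, had 11.5, 13.6 and 13.7 CPM per kilobase in U18A controls against 17.7, 16.1 and 17.5 in the mutants. The mutants were above the controls, with a log2 fold change of 0.40 ± 0.10 (adjusted p 0.0213). Of the 9 genes listed as intestinal lectins 6 were tested in each contrast, and clec-67 was the 1 that passed in either. Of all genes 8.16% passed for U18A. At an unadjusted p under 0.05, 2 of the 6 were higher for U18A, clec-67 and lec-8, and 0 were changed for U13A. The clec-67 call was lost in DESeq2 (adjusted p 0.0755) and in 4 of 6 fits without 1 library, where the highest adjusted p was 0.123 without control A.

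clec-265, on chromosome X, had 17.6, 16.8 and 22.4 CPM per kilobase in U18A controls against 25.0, 29.3 and 27.04 in the mutants. It had a log2 fold change of 0.50 ± 0.12 (adjusted p 0.0171), lost in 3 of 6 fits without 1 library (highest adjusted p 0.101, without control B). clec-5, on chromosome III, went from 15.9 ± 1.10 to 21.6 ± 2.51 CPM per kilobase (SD, n = 3 each). Its log2 fold change was 0.46 ± 0.12 (adjusted p 0.0183). Its call was lost in 4 of 6 such fits and in DESeq2.

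Of the 12 galectin genes 11 had enough counts in both contrasts, and lec-7 did not. 0 of 11 passed in the U13A contrast with edgeR and 0 with DESeq2, with lec-4, lec-6, lec-9 and lec-10 at an unadjusted p under 0.05. Of all genes tested for U13A, 1.55% passed and 12.6% had an unadjusted p under 0.05. In the U18A contrast lec-2 and lec-9 passed, both higher, where 2.29% of all genes passed as higher. lec-8 and lec-11 were also higher at an unadjusted p under 0.05, where 21.5% of all genes fell under it in either direction. lec-9 had 112, 121 and 132 CPM per kilobase in the U18A controls against 154, 157 and 158 in the mutants. The groups did not overlap, and the log2 fold change was 0.36 ± 0.09 (adjusted p 0.0135), lost in 3 of 6 fits without 1 library (highest adjusted p 0.0907, without control A). In the U13A contrast the lec-9 estimate was 0.33 ± 0.14 (adjusted p 0.368), a difference between contrasts of -0.01 ± 0.17 (adjusted p 0.99).

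lec-2 had 52.3, 48.1 and 51.2 CPM per kilobase in U18A controls against 64.5, 68.5 and 59.5 in the mutants, with a log2 fold change of 0.34 ± 0.08 (adjusted p 0.0131). The call was lost in 2 of 6 fits without 1 library (highest adjusted p 0.111, without control B). In the U13A table lec-2 had 14.8 ± 2.20 in controls and 14.5 ± 0.356 in mutants (SD, n = 3 each), and the estimated log2 change was -0.04 ± 0.14.

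lec-8 encodes a galectin that binds glycolipids and limits the effect of a Bacillus thuringiensis crystal toxin on the gut. It had 94.5, 130 and 120 CPM per kilobase in U18A controls against 149, 142 and 142 in the mutants, and the groups did not overlap. Its log2 fold change of 0.33 ± 0.10 (adjusted p 0.0523) did not pass. Its neighbour on chromosome X, lec-7, had at most 20 counts in any library.

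lec-10 had 22.9, 30.5 and 19.04 CPM per kilobase in U13A controls against 37.5, 35.6 and 29.1 in the mutants, with overlapping groups. Its U13A estimate was 0.48 ± 0.17 (adjusted p 0.223) and its U18A estimate 0.13 ± 0.08 (adjusted p 0.388). The U13A call of lec-10 was gained in 3 alternative fits, and the lowest edgeR adjusted p among fits without 1 library was 0.0445. lec-4 had estimates of 0.34 ± 0.13 (adjusted p 0.276) for U13A and -0.19 ± 0.12 (adjusted p 0.362) for U18A, and lec-11 of -0.17 ± 0.21 and 0.45 ± 0.15 (adjusted p 0.074). The 95% intervals of lec-3, lec-5 and lec-12 included 0 in both contrasts, with bounds no farther from 0 than 0.70.

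**Figure D5:**
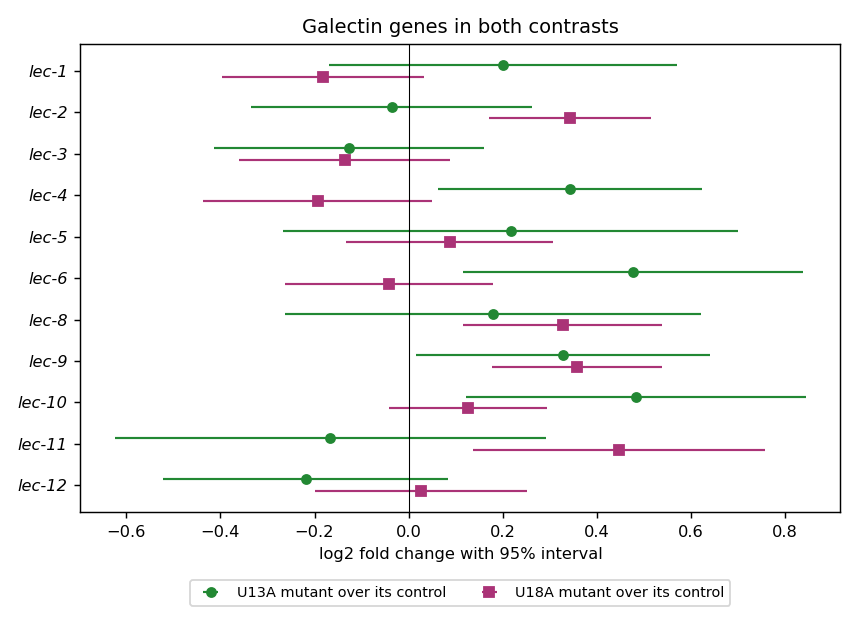
log2 fold change of the 11 galectin genes tested in both contrasts, with 95% intervals from the edgeR fit; green circles are the U13A contrast and purple squares the U18A contrast. The intervals for lec-9 lie above 0 in both contrasts, though its U13A change did not pass after adjustment (0.368), those for lec-4, lec-6 and lec-10 lie above 0 in the U13A contrast, and those for lec-2, lec-8 and lec-11 lie above 0 in the U18A contrast.

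Other effectors of intestinal immunity were counted from a list of 39 genes, of which 37 were in the tables. In the U13A contrast 27 were tested, with 1 higher and 1 lower, where 1.55% of all genes passed in either direction. At an unadjusted p under 0.05 there were 9 higher and 3 lower of the 27, where 12.6% of all genes tested for U13A fell under it. DESeq2 called 2 higher and 1 lower. The higher gene was dod-24, at 7.22 ± 2.21 CPM in controls and 15.8 ± 1.27 in mutants (log2 fold change 1.09, adjusted p 0.01). The lower gene was the lysozyme gene lys-4, at 62.1 ± 0.953 and 41.6 ± 5.09 CPM (SD, n = 3 each; log2 fold change -0.58, adjusted p 0.0453). For U18A the log2 fold changes were -0.10 for dod-24 and 0.05 for lys-4 (edgeR adjusted p 0.655 and 0.792). In the U18A contrast 29 were tested, with 3 higher and 0 lower: the lysozyme gene lys-2 (log2 fold change 0.28), the saposin-like gene spp-3 (0.48) and dod-19 (0.40). For U13A the log2 fold changes of lys-2, spp-3 and dod-19 were 0.55, -0.05 and -0.06 (edgeR adjusted p 0.0893, 0.957 and 0.910). Of all genes tested for U18A, 2.29% passed as higher. At an unadjusted p under 0.05 there were 7 higher and 0 lower of the 29, where 21.5% of all genes tested for U18A fell under it. DESeq2 called 1 higher and 0 lower. Median log2 fold changes of the tested list genes were 0.13 for U13A and 0.07 for U18A. Of 16 regulators of immune genes, among them the p38 kinase gene pmk-1 and the GATA factor gene elt-2, 0 passed in the U13A contrast with edgeR or DESeq2 and 3 were lower at an unadjusted p under 0.05. In the U18A contrast zip-2 passed with edgeR and 0 passed with DESeq2, and zip-2 fell by 0.28 on the log2 scale (adjusted p 0.0369). Of all genes 5.88% passed as lower for U18A with edgeR. At an unadjusted p under 0.05, 3 of the 16 regulators were lower for U18A and 0 higher.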

How the data were processed

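Total RNA depleted of ribosomal RNA from whole animals was sequenced on an Illumina instrument, per the labels' protocols. The deposited tables hold raw whole-number counts per annotated entry, made by the authors with cutadapt 1.9, Bowtie2 2.3.4.3 and featureCounts from Subread 1.6.2, per the submitters' processing notes. The build, annotation, use of strand and treatment of reads that match several genes are not given in the sources used here, so reads of near-identical or overlapping lectin genes may be split or shared.

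Each contrast was fitted with edgeR 4.0.16 (R 4.3.3): filterByExpr (minimum count 10, minimum total 15), TMM scaling, the robust quasi-likelihood test and Benjamini-Hochberg adjustment over all tested genes, with a threshold of 0.05. The difference between contrasts was the interaction term of a fit over all 12 libraries. The steps were tested on simulated data. The edgeR standard errors and 95% intervals come from the same fits. Levels are TMM-scaled CPM per 1000 bases of merged exons, with lengths and coordinates from Ensembl release 115 (WBcel235). Of 277 members, 246 matched by symbol, 30 through a RefSeq gene interval, and clec-81 did not match. Ensembl biotypes were used.

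Genes were named by rule: the 10 with the highest level in each table, those past the threshold in both contrasts, the 5 largest changes per contrast and direction, those past the threshold for the difference, and every lec gene. Members and lists were chosen with earlier results of these data known. Alternatives were DESeq2 1.42.0, RLE size factors, other count filters, removal of the 10 most abundant entries, a replicate block, a fit of all 12 libraries, a threshold of 0.01, the longest transcript as length, and leaving out each library.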

Additional observations from a re-analysis of the deposited data

Results flagged for a closer look

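The change of clec-180 differed between the contrasts by the test of the difference itself. The log2 change in U13A minus that in U18A was 2.36 (SE 0.46, edgeR adjusted p 0.00556). U13A libraries held 6 to 18 counts of this gene and U18A libraries 13 to 43. Every U13A mutant CPM value lay above its controls while every U18A mutant value lay below. Without U13A control C and U18A mutant C together, an alternative chosen after seeing the data, the difference was 2.47 (adjusted p 0.00551). The U13A mutant also carries a change in lin-41, the control strains differ, and each contrast fills 1 table, so these cannot be told apart.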

How the results depend on the processing

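Of 1175 alternative values of the named genes, 1118 kept their side of the threshold, 46 lost the call and 11 gained it. The sign changed in 63 of them, spread over 23 log2 changes or differences, and 0 of the 63 were past the threshold in either fit. For U13A, the count of higher lectin genes (0) was 1 with all 12 libraries in 1 fit and 2 with no count filter, and 0 to 1 when a library was left out. The count lower in U13A (1) was 0 at an adjusted p under 0.01 and 0 to 1 when a library was left out. For U18A, the count higher (6) was 2 with all 12 libraries in 1 fit, 10 with no count filter and 0 at an adjusted p under 0.01, and 1 to 6 when a library was left out. The count lower in U18A (7) was 3 at an adjusted p under 0.01 and 4 to 5 when a library was left out. The count lower in both mutants (1) was 0 at an adjusted p under 0.01 and 0 to 1 when a library was left out. The count for the difference (1) was 2 without U13A control C and U18A mutant C together, and 1 to 2 when a library was left out. The causes were not tested. Shares of all genes called are given for the main edgeR fit only. The counts of the alternative fits in this section thus do not show whether lectin genes lost or gained calls more often than other genes.

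Whether replicate letters pair the libraries was not settled, since 3 libraries per group are too few to exclude pairing. Same-letter correlations of deviations from group means ran from -0.033 to 0.0934 for U13A and from -0.00542 to 0.124 for U18A. Different-letter correlations ran from -0.164 to 0.198 for U13A and from -0.113 to 0.0604 for U18A, so the highest U18A value was a same-letter one. With the replicate block the counts were 0 higher and 1 lower for U13A, 9 higher and 7 lower for U18A, 1 lower in both and 1 for the difference. The 10 highest genes were the same with the longest transcript as length, 10 of 10 in each table. Depth limits the low members: 189 of 277 could not be tested in either contrast, and the median SE of the log2 change was 0.22 for U13A and 0.17 for U18A.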
